A study of Rattus norvegicus with 21 samples.

Results

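The endoplasmic reticulum (ER) chaperones and heat shock proteins are the genes a liver cell uses to fold proteins and to dispose of those that misfold. In livers of male rats given tert-butylphenyl diphenyl phosphate (BPDP) most of them were called at no dose. At the single doses 0.387% to 8.95% of all genes were called, and the share of all genes called at any dose was not counted. Herpud1, an ER membrane protein that serves the degradation of misfolded proteins, was called higher at 258.1 mg/kg and above. It lay above all vehicle arrays at every dose, and its log2 change was 0.46 at both 129.2 and 258.1 mg/kg. The call therefore does not mark where the rise began. In the ER lumen 4 genes, Sdf2l1, Dnajb11, Hspa5 and Hyou1, were called lower at 1 or 2 doses each. Of their calls only that of Sdf2l1 held in all 21 fits that each left out 1 array. The others were lost in 4 to 13 of these fits. The members are a list of 38 gene symbols, put together with earlier results of these data known, and the rule that finds them on the array uses no measured value. Of these, 34 have a probe set that names them alone, among 14217 such genes on the array, and 3 (Hspa1b, Hspa8 and Hsp90aa1) stand only on probe sets that name several genes. Ern1, which encodes the sensor IRE1 alpha, has no probe set and was not analysed here.

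BPDP is an aryl phosphate that serves as a flame retardant and as a plasticiser. Male Harlan Sprague Dawley rats received it by oral gavage in corn oil on 4 consecutive days, with 3 arrays at each of 64.6, 129.2, 258.1, 516.2 and 1032.5 mg/kg, and 6 arrays from rats given corn oil alone, the vehicle. Livers were taken the day after the last dose, and the sources used here do not give the age of the rats. The labels give 1 array per replicate number, and the treatment protocol speaks of 5 vehicle rats where 6 vehicle arrays are listed.

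Proteins that enter the ER are held by the Hsp70 protein BiP with its J-domain partners, by the Hsp90 protein GRP94, by the lectins calnexin and calreticulin, and by the disulfide isomerases. When unfolded proteins accumulate, the sensors ATF6, IRE1 alpha and PERK induce these chaperones, the degradation machinery and, through ATF4, genes of amino acid metabolism. In the cytosol, misfolded proteins free HSF1 to induce heat shock proteins, and mitochondria hold chaperones of their own. The liver secretes most plasma proteins, so its ER chaperones are abundant at rest.

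The 4 promoters below are shown because they carry response elements of these pathways. Hspa5, Herpud1 and Hyou1 are 3 of the members called below, and Hspe1 shares its promoter region with Hspd1. They are the 250 bases before the annotated start, from RefSeq in the assembly GRCr8, 5′ to 3′ in the sense of the gene. Capitals mark every match, on either strand, to the 5 motifs searched. Hspa5 lies at chr3:38452766-38453015 on the plus strand, Herpud1 at chr19:10614708-10614957 on the minus strand, Hyou1 at chr8:53602632-53602881 on the plus strand and Hspe1 at chr9:64084077-64084326 on the plus strand.
Hspa5: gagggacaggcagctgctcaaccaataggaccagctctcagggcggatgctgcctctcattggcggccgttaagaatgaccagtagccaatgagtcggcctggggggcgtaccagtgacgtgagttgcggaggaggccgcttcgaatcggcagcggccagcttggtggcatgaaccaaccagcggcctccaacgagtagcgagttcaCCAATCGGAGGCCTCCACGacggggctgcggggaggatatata
Herpud1: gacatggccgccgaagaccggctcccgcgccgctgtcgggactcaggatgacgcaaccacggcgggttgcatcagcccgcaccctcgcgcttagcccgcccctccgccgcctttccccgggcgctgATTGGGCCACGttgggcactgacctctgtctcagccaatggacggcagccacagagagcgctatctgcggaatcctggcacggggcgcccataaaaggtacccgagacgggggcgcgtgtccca
Hyou1: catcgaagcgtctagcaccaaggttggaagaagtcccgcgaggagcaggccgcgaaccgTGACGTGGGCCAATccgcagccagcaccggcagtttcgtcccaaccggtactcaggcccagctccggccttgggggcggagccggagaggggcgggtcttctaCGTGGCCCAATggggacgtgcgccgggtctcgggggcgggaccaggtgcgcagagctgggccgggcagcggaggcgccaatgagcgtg
Hspe1: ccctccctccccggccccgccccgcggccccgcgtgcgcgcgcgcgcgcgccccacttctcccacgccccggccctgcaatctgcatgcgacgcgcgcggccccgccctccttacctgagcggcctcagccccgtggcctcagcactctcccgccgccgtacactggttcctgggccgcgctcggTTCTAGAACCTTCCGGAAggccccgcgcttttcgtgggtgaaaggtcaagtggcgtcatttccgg

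Of the members, 29 have a promoter in the table, and 11734 array genes do. The ER stress element (CCAAT, any 9 bases, CCACG) was found in Calr, Canx, Creld2, Dnajc3, Hsp90b1, Hspa5 and Xbp1, and in 0.145% of all array genes with a promoter. The capitals in Hspa5 are its single match, 43 to 25 bases before the start. The ER stress element II (ATTGG, any 1 base, CCACG) was found in Herpud1 and Hyou1, and in 0.0852% of genes. Hyou1 has 2 such matches, of which the one farther from the start overlaps its match to the unfolded protein response core TGACGTGG, held by 0.793% of genes. Hyou1 has another annotated start in the table, whose window holds no match. The heat shock element (GAA, any 2 bases, TTC, any 2 bases, GAA, or the same from TTC) was found in Hspa8, Hspd1, Hspe1 and Hsph1, and in 0.401% of genes. Its 2 matches in Hspe1 overlap each other. Hspd1 and Hspe1 point away from each other, and their windows share 211 bases, so the capitals in Hspe1 are those of Hspd1 read from the other strand. The amino acid response element (TGATG followed by CAAT) was found in no member and in 0.187% of genes. Sdf2l1 and Dnajb11 hold no match in these windows. A match is a run of letters, not a measured binding site.

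All values are RMA log2 signals as deposited, 1 per probe set and array, and a gene is represented by its brightest probe set. Pairs of arrays correlated at r from 0.984 to 0.995 and none were identical. The 8 hepatocyte markers were bright on every array, with means from 13.35 to 13.68, and none of them was called at any dose, though 1 of the 8 had a falling slope over all arrays. Some markers of other cells were called at the 3 higher doses, where 3.56%, 8.93% and 8.95% of all genes were called. Called lower were 1.33%, 2.64% and 4.14% of all genes. At 258.1 mg/kg 3 of 8 stellate markers fell (list mean 8.02 to 8.40 per array, against 8.27 to 8.67 in the vehicle group) and 1 of 4 cholangiocyte markers rose. Of the red cell markers at 1032.5 mg/kg, Hbb fell 4.03-fold and Alas2 3.73-fold. At that dose 2 of 6 Kupffer markers fell (8.81 to 9.20, against 9.31 to 9.98), as did 4 of 8 stellate markers (7.85 to 7.98, against 8.27 to 8.67) and 2 of 10 lymphocyte and plasma cell markers (6.10 to 6.13, against 6.29 to 6.47). The dose of 516.2 mg/kg had 5 of 8 stellate markers (7.69 to 8.03) and 2 of 10 lymphocyte and plasma cell markers (6.10 to 6.32) lower. Of these 2, Sdc1 averaged 10.07 at that dose and 10.46 in the vehicle group, far above its list mean. Also lower was 1 of 5 endothelial markers (8.59 to 9.01, against 8.70 to 9.42). Of the others at 1032.5 mg/kg, 0 of 4 neutrophil markers were called, 1 of 4 cholangiocyte markers rose and 1 of 6 pancreatic acinar markers, Cela1, fell. The median change was -0.073 for the cholangiocyte list and 0.011 for the acinar list, each opposite in sign to its single call. Cela1 averaged 10.72 in the vehicle group, where the acinar list mean was 5.97 to 6.23 per array. Fewer cells of a type and less RNA per cell cannot be told apart in whole liver. The part of these cells in the chaperone values was not tested. The clock gene Dbp, a transcription factor of circadian output, stood 4.25 to 4.78 log2 units above vehicle at every dose, with no call on its slope among dosed arrays. Its part in any difference between dosed and vehicle arrays was not tested either. RNA integrity, read as the 5′ minus 3′ log2 signal of control transcripts, had medians of -2.05, -1.62, -1.65, -2.49 and -1.37 from the lowest dose to the highest, against -1.89 in the vehicle group. Replicate 1 at 258.1 mg/kg (-3.10) and replicates 3 (-2.83) and 1 (-2.49) at 516.2 mg/kg lay below every vehicle array. Vehicle replicate 6 stood apart from its group, with a mean correlation of 0.989 with the other vehicle arrays, where those had 0.9929 to 0.9934, and the lowest vehicle integrity (-2.40). Without it 0, 0, 3, 4 and 4 members were called in order of dose, and the share of all genes in that fit was not counted.

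Counted with limma at a Benjamini-Hochberg adjusted p under 0.05 over all 31042 probe sets, few members moved. At 64.6 mg/kg none of 34 was called, beside 0.387% of all genes, and 5 had an unadjusted p under 0.05 (9.32% of all genes). At 129.2 mg/kg none was called, beside 0.521% of all genes, and 13 had an unadjusted p under 0.05 (9.11% of all genes), of which 12 lay below vehicle. At 258.1 mg/kg 3 were called, or 8.82%, beside 3.56% of all genes. Herpud1 was the 1 that rose, beside 2.23% of genes, and Hyou1 and Dnajb11 were the 2 that fell, beside 1.33% of genes. At 516.2 mg/kg 2 were called, or 5.88%, beside 8.93% of all genes. Herpud1 rose, beside 6.30% of genes, and Hspa5 fell, beside 2.64% of genes. At 1032.5 mg/kg 3 were called, or 8.82%, beside 8.95% of all genes. Herpud1 rose, beside 4.81% of genes, and Sdf2l1 and Dnajb11 fell, beside 4.14% of genes. By the unadjusted p the 3 higher doses had 12, 11 and 11 of 34 members, where 16.6%, 27.0% and 23.3% of all genes passed. At each of them the share of the members was the larger one. By the adjusted p the share called was above the background at 258.1 mg/kg, below it at 516.2 mg/kg and near it at 1032.5 mg/kg. Each of these called shares rests on only 2 or 3 members.

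Although few passed, the estimates leaned to one side. The median log2 change of the 34 members was -0.081, -0.105, -0.156, -0.128 and -0.073 from the lowest dose to the highest, against -0.002, -0.007, 0.005, 0.002 and -0.013 for all genes. Below vehicle lay 26, 30, 26, 23 and 22 of the 34, where 50.8%, 52.2%, 48.7%, 49.6% and 53.3% of all genes did. The medians of both ER lumen groups were below 0 at every dose, and that of the mitochondrial chaperones was above 0 at the 3 highest. At 1032.5 mg/kg 7 of 8 ER chaperones and partners and 7 of 7 ER lectins and isomerases lay below vehicle. The cytosolic group went the other way at that dose, with 8 of 9 above vehicle and a median of 0.141. All 5 doses share the same 6 vehicle arrays, so these medians are not independent of each other. The members were read on the same arrays, so they are not independent of each other either. The 95% interval of the change at 1032.5 mg/kg lay within 1.5-fold in either direction for 23 of 34 members, against 83.5% of all genes.

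**Figure D1:**
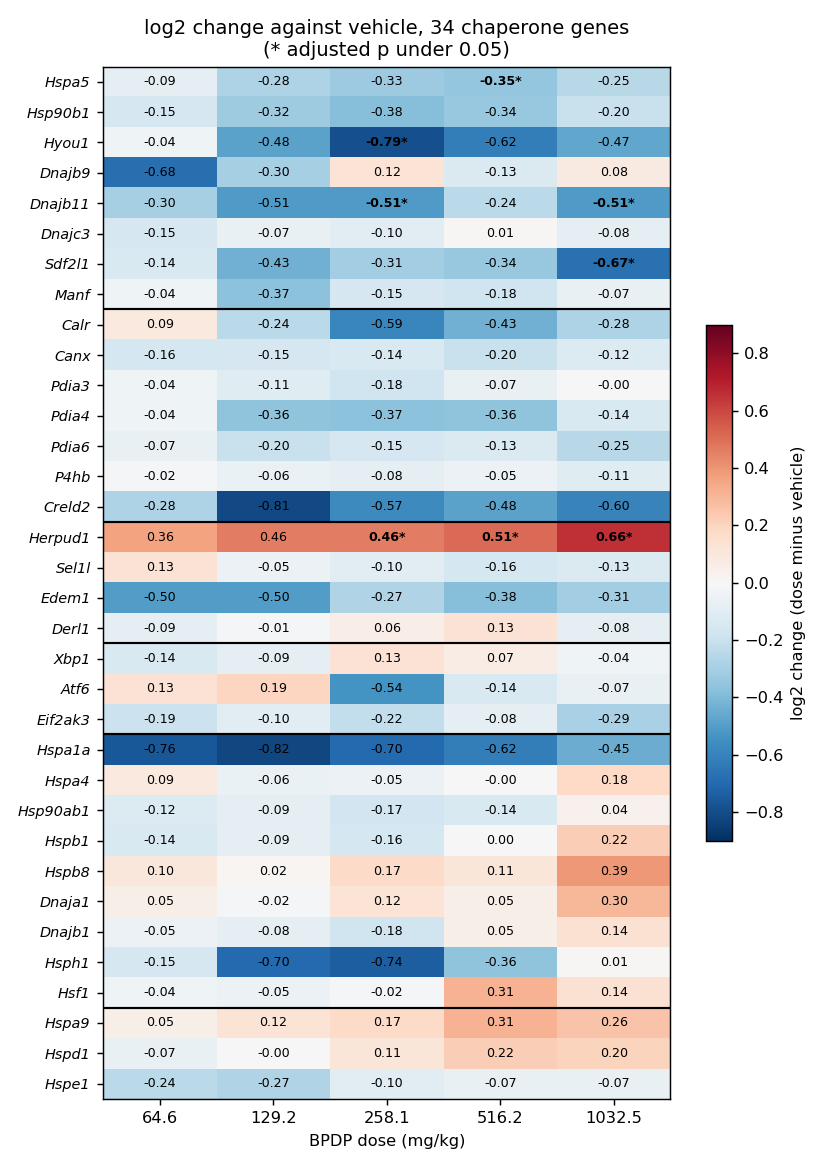
log2 change of each of the 34 members (rows, grouped by role between black lines) at each dose (columns, mg/kg), dose minus vehicle, with 3 arrays a dose and 6 vehicle arrays; an asterisk marks an adjusted p under 0.05. Herpud1 is above vehicle at every dose, from 0.36 to 0.66, while most ER lumen genes in the upper rows are below it.

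Herpud1 encodes a short-lived ER membrane protein that helps recruit the ubiquitin ligase complex for ER-associated degradation. Its log2 signal was 11.96, 12.21 and 12.01 at 64.6 mg/kg, 12.16, 12.02 and 12.28 at 129.2 mg/kg, and 12.13, 12.10 and 12.25 at 258.1 mg/kg. It was 12.28, 12.20 and 12.13 at 516.2 mg/kg and 12.49, 12.42 and 12.16 at 1032.5 mg/kg, against a lowest, median and highest of 11.40, 11.75 and 11.96 in the vehicle group. Every dosed array lay above every vehicle array, at 64.6 mg/kg by less than the rounding of the values. The log2 change was 0.36, 0.46, 0.46, 0.51 and 0.66 (SE 0.12 each) from the lowest dose to the highest. By limma the adjusted p was 0.328, 0.154, 0.0454, 0.0159 and 0.0015 in the same order. The change at 1032.5 mg/kg was a 1.58-fold rise. The call at 1032.5 mg/kg held in all 30 alternatives, with adjusted p from 0.000866 to 0.0204. The call at 516.2 mg/kg was lost without replicate 1 of that dose (adjusted p = 0.0995) and in a fit of that dose and vehicle alone (0.0583). The call at 258.1 mg/kg was lost in 15 of 21 fits that each left out 1 array, and with cyclic loess (0.0632), median subtraction (0.0549) or a fit of that dose and vehicle alone (0.134).

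Sdf2l1 encodes a partner of the BiP cochaperone ERdj3 in the ER lumen. Its arrays at 1032.5 mg/kg read 10.90, 10.42 and 10.91, against 11.19, 11.47 and 11.58 as the lowest, median and highest of the vehicle group, with no overlap. The log2 change was -0.67 (SE 0.12, 1.6-fold lower, limma adjusted p = 0.00169), and the call held in all 30 alternatives. Without replicate 2 of that dose, the lowest array, the change was -0.51, the smallest of the 21 leave-one-out fits. Sdf2l1 read 11.35, 11.09 and 11.37 at 64.6 mg/kg, 11.02, 10.97 and 10.97 at 129.2 mg/kg, 11.17, 11.21 and 10.95 at 258.1 mg/kg, and 11.02, 10.82 and 11.40 at 516.2 mg/kg. Of these doses 129.2 mg/kg lay below all vehicle arrays and the others overlapped them. In order of these lower doses Sdf2l1 differed by -0.14, -0.43, -0.31 and -0.34 on the log2 scale, with no call.

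Dnajb11 encodes ERdj3 itself, the J-domain protein that hands substrates to BiP. Its arrays read 9.86, 9.82 and 9.90 at 258.1 mg/kg and 10.08, 9.61 and 9.90 at 1032.5 mg/kg, against 10.14, 10.39 and 10.62 as the lowest, median and highest vehicle values. Both doses lay below all vehicle arrays. The log2 change was -0.51 (SE 0.13) at each, with limma adjusted p of 0.0453 at 258.1 mg/kg and 0.0243 at 1032.5 mg/kg. Dnajb11 read 10.24, 9.99 and 10.00 at 64.6 mg/kg, 10.03, 9.87 and 9.71 at 129.2 mg/kg, and 10.49, 9.88 and 10.03 at 516.2 mg/kg. The middle one of these doses lay below all vehicle arrays, while replicate 1 at 516.2 mg/kg was within the vehicle range, where the change was -0.24 (adjusted p = 0.317). The call at 1032.5 mg/kg was lost without vehicle replicate 1 (adjusted p = 0.0507) or 5 (0.05), without replicate 2 (0.189) or 3 (0.0656) of that dose, and with the integrity covariate (0.0539). The call at 1032.5 mg/kg was also lost with median subtraction (0.0519), as was that at 258.1 mg/kg (0.0796). The call at 258.1 mg/kg was lost in 12 of 21 leave-one-out fits, of which that without vehicle replicate 6 gave 0.056.

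Hspa5 encodes BiP, the main ER Hsp70 and the usual index of the unfolded protein response. At 516.2 mg/kg it read 12.95, 13.17 and 13.14, against 13.19, 13.43 and 13.69 as the lowest, median and highest vehicle values. The log2 change was -0.35 (SE 0.10, 1.28-fold lower, limma adjusted p = 0.0441). Hspa5 read 13.41, 13.38 and 13.26 at 64.6 mg/kg, 13.20, 13.25 and 13.02 at 129.2 mg/kg, 13.07, 13.07 and 13.20 at 258.1 mg/kg, and 13.31, 13.10 and 13.15 at 1032.5 mg/kg. At the highest dose 1 array, at 13.31, lay within the vehicle range, and the change was -0.25 (adjusted p = 0.175). The call at 516.2 mg/kg was lost in 12 of 21 leave-one-out fits and with the integrity covariate (adjusted p = 0.0787), median subtraction (0.0957) or a fit of that dose and vehicle alone (0.119). Hspa5 was above the vehicle mean on none of the 15 dosed arrays.

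Hyou1 encodes GRP170, which exchanges nucleotide on BiP. At 258.1 mg/kg it read 8.18, 8.51 and 7.95, against 8.44, 9.01 and 9.53 as the lowest, median and highest vehicle values, so that 1 array overlapped the vehicle range. The log2 change was -0.79 (SE 0.20, 1.73-fold lower, limma adjusted p = 0.0448). Hyou1 read 8.87, 9.25 and 8.77 at 64.6 mg/kg, 8.33, 8.70 and 8.53 at 129.2 mg/kg, 8.24, 8.81 and 8.11 at 516.2 mg/kg, and 8.39, 8.49 and 8.73 at 1032.5 mg/kg. Each of these doses overlapped the vehicle range. Its other probe set was dim, with a mean of 5.51 over all arrays against 8.66, and lay below vehicle at every dose (-0.27 to -0.13). At 258.1 mg/kg that probe set differed by -0.27 (adjusted p = 0.555), so the call rests on 1 of 2 probe sets. It was also lost in 13 of 21 leave-one-out fits, with cyclic loess (0.0615) and in a fit of that dose and vehicle alone (0.121). Without vehicle replicate 6 Hyou1 was called at 258.1 mg/kg (log2 change -0.90, adjusted p = 0.00974) and at 516.2 mg/kg (-0.73, adjusted p = 0.0251).

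**Figure D2:**
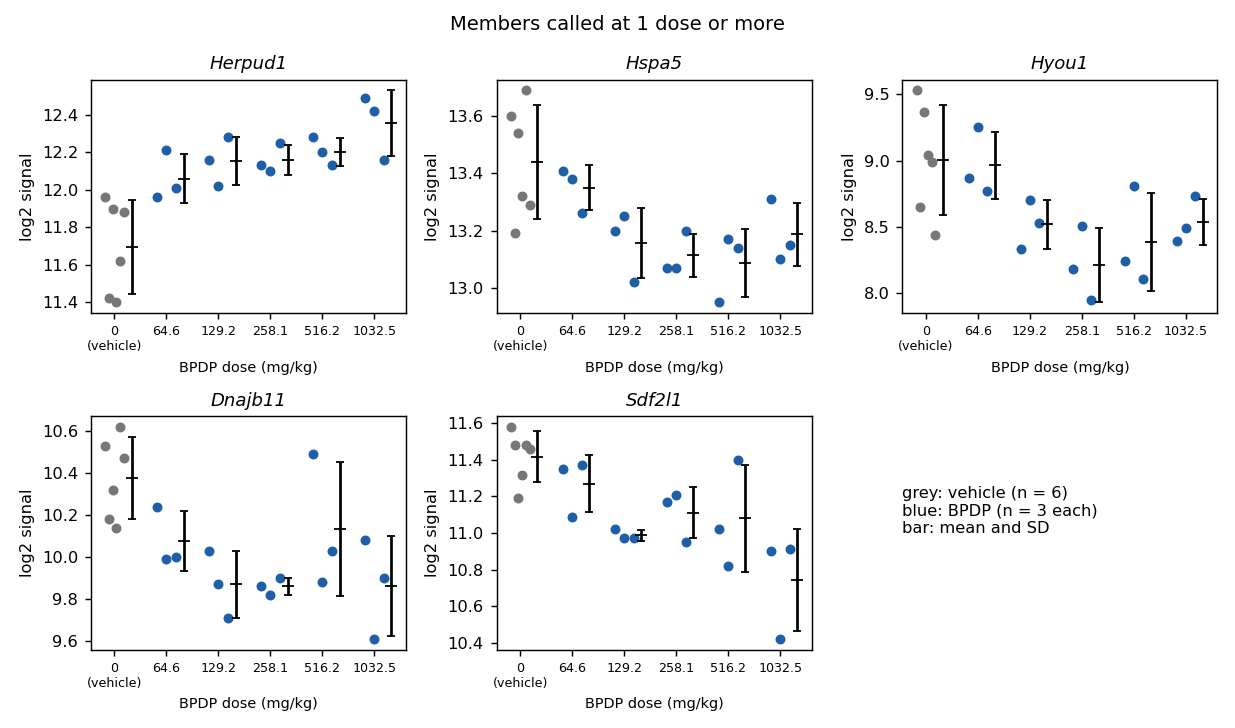
log2 signal of the 5 members called at 1 dose or more, on every array (points), by BPDP dose in mg/kg; grey points are the 6 vehicle arrays, blue points the 3 arrays of each dose, and bars the mean and SD. Herpud1 sits above the vehicle range at each dose, apart from 1 array at 64.6 mg/kg that is level with its top (11.96). From 129.2 mg/kg on the other 4 genes sit mostly at the lower edge of their vehicle range or below.

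Of the 8 measured ER Hsp70 and Hsp90 chaperones and their partners, Hsp90b1, which encodes GRP94, differed by -0.38 at 258.1 mg/kg (adjusted p = 0.0732) and -0.34 at 516.2 mg/kg (adjusted p = 0.0661). Manf, a secreted ER factor, differed by at most -0.37, and Dnajc3, an inhibitor of PERK, by at most -0.15. Dnajb9, which encodes the J-domain protein ERdj4, read 9.83, 9.87 and 9.63 at 64.6 mg/kg, below all vehicle arrays, and 10.90, 10.42 and 10.29 at 1032.5 mg/kg, against 10.02, 10.52 and 10.66 as the lowest, median and highest vehicle values. The change was -0.68 at 64.6 mg/kg (limma adjusted p = 0.0748) and 0.08 at 1032.5 mg/kg. Averaged over the 8 genes, 13 of the 15 dosed arrays lay below all vehicle arrays. The group mean was -0.20, -0.35, -0.31, -0.27 and -0.27 log2 units from the vehicle mean, in order of dose.

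Among the 7 ER lectins and disulfide isomerases none was called at any dose by its brightest probe set. Averaged over the 7, all 12 arrays at 129.2 mg/kg and above lay below all vehicle arrays, at -0.35 to -0.16, against -0.09 to 0.10 on vehicle arrays. Creld2, a secreted ER stress protein, differed by -0.81 at 129.2 mg/kg (adjusted p = 0.131) and -0.60 at 1032.5 mg/kg (adjusted p = 0.0968). Calr, calreticulin, differed by -0.59 at 258.1 mg/kg (adjusted p = 0.0941), and without vehicle replicate 6 by -0.71 (adjusted p = 0.0116). At 516.2 mg/kg it differed by -0.43 (adjusted p = 0.164), and without that array by -0.55 (adjusted p = 0.035). The isomerases Pdia4 and Pdia6 came closest at 516.2 mg/kg (Pdia4, -0.36, adjusted p = 0.0693) and 1032.5 mg/kg (Pdia6, -0.25, adjusted p = 0.063). P4hb, the founding disulfide isomerase, differed by -0.11 to -0.02.

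The probe sets of Pdia3, the glycoprotein isomerase ERp57, disagreed. The brighter one differed by -0.11 at 129.2 mg/kg (adjusted p = 0.88) and by less than 0.01 at 1032.5 mg/kg (adjusted p = 0.998). The dimmer one read 8.16, 7.97 and 7.88 at 129.2 mg/kg and 8.03, 7.78 and 7.99 at 1032.5 mg/kg, against 8.36, 8.53 and 8.68 as the lowest, median and highest vehicle values. It differed by -0.53 (limma adjusted p = 0.0281) and -0.60 (adjusted p = 0.00114) at those doses. For Canx, calnexin, a dimmer probe set fell by 0.28 at 1032.5 mg/kg (adjusted p = 0.0236), while the brightest differed by -0.12 (adjusted p = 0.559). Which of these probe sets reads the full set of transcripts cannot be told from the files.

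The other 3 measured genes of ER-associated degradation were called at no dose. Sel1l, the adaptor of the HRD1 ligase, differed by -0.16 to 0.13 and Derl1, a retrotranslocation channel protein, by -0.09 to 0.13. Edem1, which helps mark misfolded glycoproteins by mannose trimming, differed by -0.50 to -0.27, and without vehicle replicate 6 by -0.25 to -0.02. Edem1 read highest on vehicle replicates 5 (12.67) and 6 (13.39), above every dosed array. Of the sensors and their effector, Xbp1, the transcription factor spliced by IRE1 alpha, differed by -0.14 to 0.13. Atf6 differed by -0.54 at 258.1 mg/kg (adjusted p = 0.316) and Eif2ak3, which encodes PERK, by -0.29 at 1032.5 mg/kg (adjusted p = 0.312). The array does not separate spliced from unspliced Xbp1, or cleaved from full-length ATF6.

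**Figure D3:**
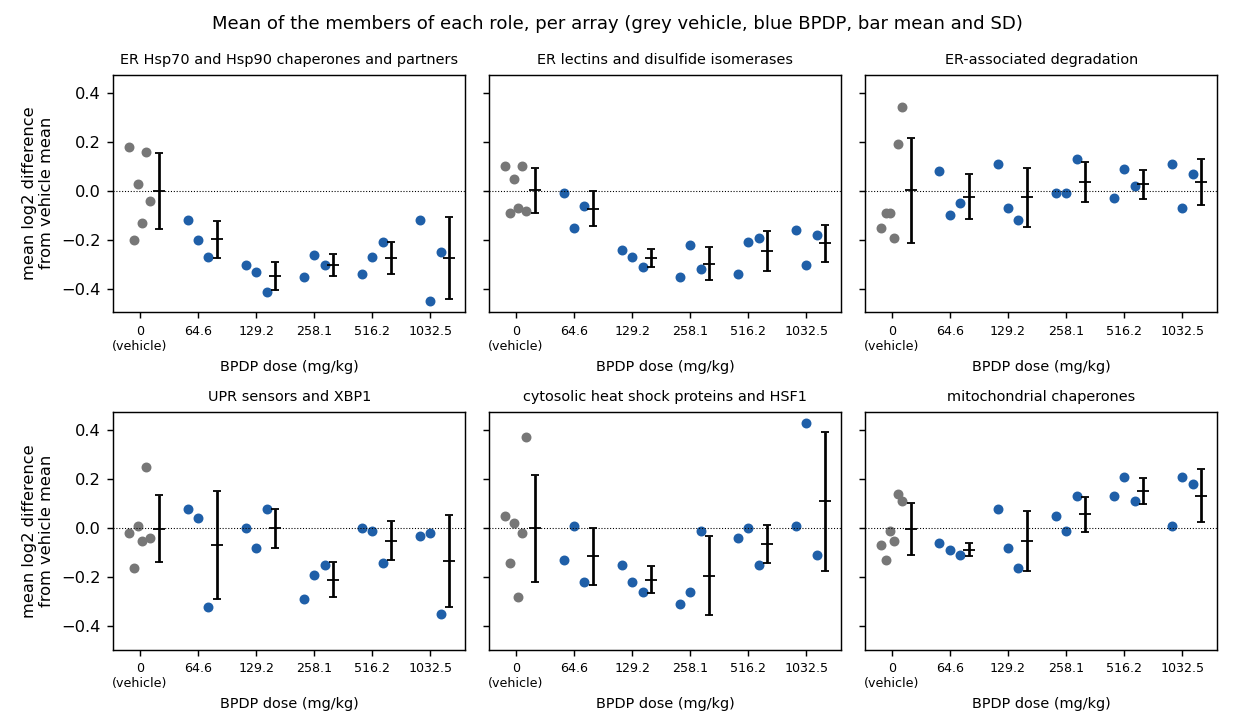
Mean log2 difference from the vehicle mean over the members of each role (1 panel each), per array, by BPDP dose in mg/kg; grey points are vehicle arrays, blue points dosed arrays, and bars the mean and SD. The ER chaperone and ER lectin panels lie below the vehicle points from 129.2 mg/kg on, apart from 1 array at 1032.5 mg/kg in the first, and the mitochondrial panel is at 0.15 and 0.13 at the 2 highest doses.

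None of the 9 measured genes for cytosolic heat shock proteins and HSF1 was called at any dose. The changes ran from -0.17 to 0.04 for Hsp90ab1, the constitutive Hsp90, and from -0.16 to 0.22 for Hspb1, a small heat shock protein. They ran from -0.06 to 0.18 for Hspa4, an Hsp110 family member, from -0.18 to 0.14 for Dnajb1, an inducible Hsp40, and from -0.05 to 0.31 for Hsf1, the transcription factor of the response. Hspb8, a small heat shock protein of selective autophagy, differed by 0.39 at 1032.5 mg/kg (adjusted p = 0.127). Dnaja1, an Hsp40 partner of Hsc70, read 12.03, 12.23 and 12.01 at that dose, above all vehicle arrays, which had a lowest, median and highest of 11.56, 11.81 and 11.99. Its change of 0.30 missed the threshold (adjusted p = 0.0872), and passed it without vehicle replicate 6 (0.34, adjusted p = 0.0444). Its dimmer probe set differed by 0.02 (adjusted p = 0.96). Hsph1, the Hsp110 exchange factor, differed by -0.70 and -0.74 at 129.2 and 258.1 mg/kg (adjusted p = 0.34 and 0.103) and by 0.01 at 1032.5 mg/kg. The mean over the 9 genes at that dose was 0.43 on replicate 2, where replicates 1 and 3 were at 0.01 and -0.11. On replicate 2 the values of 9.58 for Hspb1, 13.14 for Hsp90ab1 and 10.27 for Hsph1 exceeded all other arrays.

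Hspa1a, the strictly inducible Hsp70, gave the widest vehicle spread of the 34 members (SD 0.97). It read 6.47, 6.84 and 6.26 at 1032.5 mg/kg, against 6.75, 6.46, 6.46, 6.31, 6.96 and 8.90 on vehicle replicates 1 to 6. Vehicle replicate 6 stood above all other arrays. The log2 change at 1032.5 mg/kg was -0.45 (adjusted p = 0.593) with that array and -0.06 (adjusted p = 0.878) without it. The probe set shared by Hspa1b and Hspa1a read 6.92, 7.58 and 6.77 at 1032.5 mg/kg, and 9.63 on vehicle replicate 6, where the other vehicle arrays reached at most 7.40. On the probe sets that name Hspa8 or Hsp90aa1 with another gene no dose was called. The change there ran from -0.32 to 0.02 for Hspa8, the constitutive Hsc70. For Hsp90aa1, the inducible Hsp90, it ran from -0.61 to -0.21 on the brighter of 2 probe sets and from -1.08 to -0.07 on the dimmer. The brighter one lay below all vehicle arrays at 129.2 mg/kg (limma adjusted p = 0.148).

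**Figure D4:**
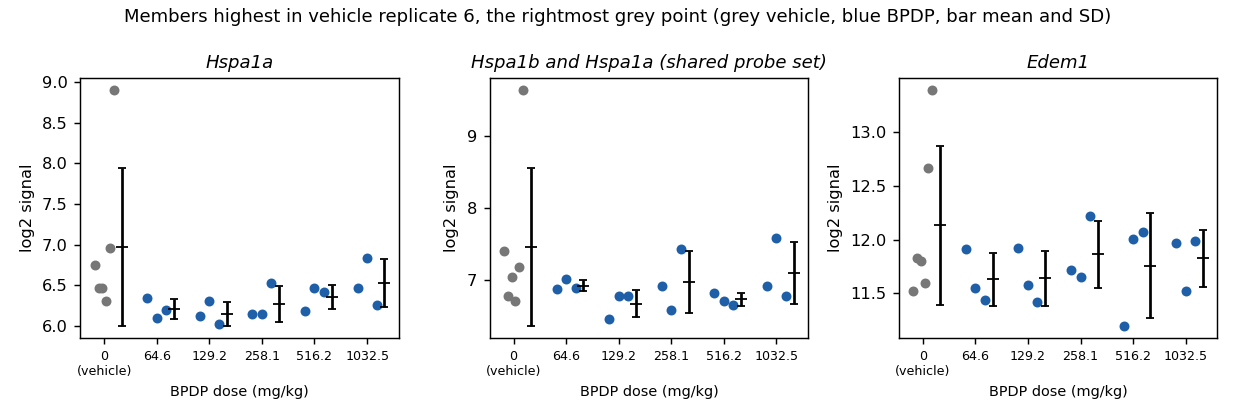
log2 signal of Hspa1a, of the probe set shared by Hspa1b and Hspa1a, and of Edem1 on every array, by BPDP dose in mg/kg; grey points are vehicle arrays, blue points dosed arrays, and bars the mean and SD. In each panel vehicle replicate 6 is the highest point, at 8.90, 9.63 and 13.39.

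The 3 mitochondrial chaperones were called at no single dose. Hspa9, mortalin, read 12.44, 12.44 and 12.58 at 1032.5 mg/kg, above all vehicle arrays, which had a lowest, median and highest of 12.09, 12.22 and 12.42, with a change of 0.26 (adjusted p = 0.131). Hspd1, Hsp60, read 13.13, 13.20 and 13.21 at 516.2 mg/kg, also above all vehicle arrays at 12.85, 12.93 and 13.09, with a change of 0.22 (adjusted p = 0.126). Hspe1, its co-chaperonin Hsp10, which shares the promoter region printed above, differed by -0.07 at both of those doses. Its arrays overlapped the vehicle range.

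A slope over the dose step (0 for vehicle, then 1 to 5) asked for a trend. With all 21 arrays limma called 3 of 34 members with a rising slope and 5 with a falling one. Herpud1 (0.120 log2 per step, adjusted p = 0.000584), Hspa9 (0.061, adjusted p = 0.0117) and Hspd1 (0.051, adjusted p = 0.0201) rose, beside 8.76% of genes. Hyou1 (-0.133, adjusted p = 0.0242), Sdf2l1 (-0.113, adjusted p = 0.00135), Dnajb11 (-0.084, adjusted p = 0.0441), Hspa5 (-0.066, adjusted p = 0.0179) and Pdia6 (-0.042, adjusted p = 0.0377) fell, beside 6.25% of genes. The same slope fell for 5 of 6 Kupffer, 4 of 8 stellate, 4 of 10 lymphocyte and plasma cell, 2 of 5 endothelial and both red cell markers. It rose for 1 of 4 cholangiocyte markers. The part of these cells in the result was not tested. Dimmer probe sets of Canx (-0.057, limma adjusted p = 0.00511) and Pdia3 (-0.090, adjusted p = 0.0143) also had a called falling slope, where their brightest did not. Leaving out 1 array ended the call for Hspd1 (BPDP 1032.5 mg/kg replicate 2), Hyou1 (vehicle replicate 1 or 3), and in 7 and 13 of 21 fits for Pdia6 and Dnajb11. The call for Hspa9 ended when its probe sets were averaged (adjusted p = 0.141), and those for Pdia6 (0.106) and Dnajb11 (0.0937) with median subtraction. The calls for Herpud1 and Sdf2l1 ended in none of these fits.

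Among the 15 dosed arrays alone, where vehicle plays no part, limma called a slope for no member, beside 3.41% of all genes, and 9 members had an unadjusted p under 0.05, as had 19.2% of all genes. Dnajb9 came closest (0.170 per step, adjusted p = 0.0515), followed by Hspd1 (0.077, adjusted p = 0.068). Herpud1 gave 0.064 (adjusted p = 0.174) and Sdf2l1 -0.097 (adjusted p = 0.194). The estimate was above 0 in 9 of 9 cytosolic and 3 of 3 mitochondrial members, where 51.6% of all genes had one below 0. Within 1032.5 mg/kg the cytosolic mean was 0.43 on replicate 2, and 0.01 and -0.11 on the others. For the ER genes called against vehicle, a change that grows with dose was therefore not shown apart from the step between vehicle and dosed arrays.

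The neighbouring pathways were read from 3 lists. Of 65 measured genes of further ER folding, degradation and translocation, 0, 0, 1, 3 and 4 were called from the lowest dose to the highest, and none had a slope among dosed arrays. The share at 1032.5 mg/kg was 6.15%, beside 8.95% of all genes, with a median change of -0.034. Those that fell at 1032.5 mg/kg were the isomerase Pdia5 (-0.72, adjusted p = 0.0148), Erp29 (-0.42, adjusted p = 0.0479) and the translocon protein Tram1 (-0.21, adjusted p = 0.0387). Creb3l3, a liver ER-bound transcription factor, rose by 0.35 (adjusted p = 0.00776). The 3 calls at 516.2 mg/kg, Edem2 (0.57), Ube2j1 (0.46) and Erlec1 (0.37), all rose, and made up 4.62% of the list. Tram1, Edem2, Ube2j1 and Erlec1 were named after their values were seen.

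Of the 15 genes of the ATF4 and CHOP branch, 0, 0, 3, 4 and 3 were called in order of dose, and all of them rose. The share at 516.2 mg/kg was 26.7%, beside 8.93% of all genes, and the median change was 0.268 for the list and 0.002 for all genes. Asns, asparagine synthetase, averaged 10.18 ± 0.30 (SD, n = 3) at 516.2 mg/kg, against 7.98 ± 0.39 (SD, n = 6) in the vehicle group, a 4.6-fold rise (limma adjusted p = 0.000192). Trib3, a pseudokinase induced by CHOP, rose 2.51-fold and Nupr1, a stress-induced nuclear protein, 1.97-fold at that dose. Ddit3, which encodes CHOP, was called at no dose. Among dosed arrays the slope was called for 2 of the 15, or 13.3%, beside 3.41% of all genes. These were Atf4 (0.14 per step, adjusted p = 0.0248) and Asns (0.36, adjusted p = 0.0398). Atf4 was named after its values were seen.

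Of 63 measured further cytosolic and mitochondrial chaperones, 1, 0, 2, 6 and 5 were called in order of dose. The share at 516.2 mg/kg was 9.52%, beside 8.93% of all genes, with a median change of 0.060. Fkbp4, an Hsp90 cochaperone of steroid receptors, fell 1.68-fold at 516.2 mg/kg (limma adjusted p = 0.0274). It was also called lower at 258.1 mg/kg (log2 change -0.90, adjusted p = 0.0162), but not at 1032.5 mg/kg. Clpx, the unfoldase of the mitochondrial ClpXP protease, fell 1.57-fold at 516.2 mg/kg (adjusted p = 0.0103). Its fall was called at 64.6 mg/kg already (-0.85, adjusted p = 0.00759), and at 258.1 (-0.67) and 1032.5 mg/kg (-0.88). Clpp, the protease partner of Clpx, rose 1.36-fold at 516.2 mg/kg (adjusted p = 0.0187). Grpel1, the nucleotide exchange factor of Hspa9, rose 1.24-fold at 516.2 mg/kg and 1.32-fold at 1032.5 mg/kg, and its slope among dosed arrays was called (0.09 per step, adjusted p = 0.034). Lonp1 and Trap1, a mitochondrial protease and the mitochondrial Hsp90, rose 1.34-fold and 1.35-fold at 516.2 mg/kg. Grpel1, Lonp1 and Trap1 were named after their values were seen.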

How the data were processed

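Liver RNA was read on an Affymetrix rat array in 21 samples. The deposited values are log2 signals made by RMA, per the submitters' processing notes, with no software or settings named in the sources used here. They were used as deposited, without a filter. Array signals carry no depth, so the number of arrays limits precision.

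Of 31042 probe sets tested (57 controls set aside), 20826 name 1 gene, 436 several and 9780 none, with symbols updated through RefSeq (GRCr8). The probe set with the highest mean stood for its gene.

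limma 3.58.1 in R 4.3.3 (lmFit, eBayes) fitted all 21 arrays with a coefficient per dose, 2-sided, and slopes on the dose step. Benjamini-Hochberg adjustment covered every probe set tested. The fit was tested on simulated data. P-values measure the spread between samples labelled as replicates, which may be technical.

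The members, lists and role groups were chosen with earlier results of these data known. Members called at any dose are given in full, with up to 3 called genes of each list at its dose with most calls. Alternatives changed the arrays fitted, the scaling (cyclic loess, median subtraction), the dim probe sets, the variance model (robust trend, array weights), the fold required, the blocking by replicate number, the covariate for RNA integrity and the probe set, or left out each array in turn.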

Additional observations from a re-analysis of the deposited data

Results flagged for a closer look

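Of the 34 members tested for a single array far from its group in the 6 vehicle arrays, 1 stood out, where chance gives about 1 in 20 groups. Hspa1a read 8.90 on vehicle replicate 6, and the nearest other vehicle array read 6.96, a gap of 0.748 of the group's range. The groups of 3 dosed arrays were not tested in this way.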

How the results depend on the processing

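With 1 array left out in turn, the number of members called ran from 0 to 1 at 64.6 mg/kg, stayed at 0 at 129.2 mg/kg, and ran from 0 to 3 at 258.1 mg/kg, from 0 to 5 at 516.2 mg/kg and from 2 to 4 at 1032.5 mg/kg. The slope over all arrays gave 5 to 10 and that among dosed arrays 0 to 1. The count was 0 at 258.1 mg/kg without vehicle replicate 5, 64.6 mg/kg replicate 3, 129.2 mg/kg replicate 2 or 258.1 mg/kg replicate 1 or 3. It was 0 at 516.2 mg/kg without replicate 1 of that dose, 5 without its replicate 3, and 4 without vehicle replicate 2 or 6. The slope over all arrays gave 5 without vehicle replicate 1 or 1032.5 mg/kg replicate 2. Counts moved by over 1.5 times as follows. At 64.6 mg/kg cyclic loess and array weights each gave 1 (Dnajb9). At 129.2 mg/kg cyclic loess gave 1 (Dnajb11) and array weights 9. At 258.1 mg/kg the compared groups alone, median subtraction and a fold of at least 1.5 each gave 1, and array weights 6. At 516.2 mg/kg the compared groups alone and a fold of at least 1.5 gave 0, cyclic loess and array weights 4, and removal of dim probe sets 5. At 1032.5 mg/kg array weights gave 9. For the slope among dosed arrays, median subtraction, removal of dim probe sets and the robust intensity trend gave 2, and array weights, the integrity covariate and averaged probe sets gave 1. The cause was not tested. No share of all genes stands beside the counts of these alternatives. A moved count therefore cannot be told apart from a shift in calls over the whole array. Replicate numbers do not pair the samples: deviations of same-numbered arrays correlated at a median of 0.005 (45 pairs, -0.28 to 0.394), against -0.008 (135 pairs) for others. With the number as a replicate block the count at 516.2 mg/kg was 1 (Calr), without Herpud1 (adjusted p = 0.0717) and Hspa5 (0.0914). At 258.1 mg/kg it was 3, with Calr and without Herpud1 (0.144). The slope over all arrays gave 6, with Calr and without Hspa5 (0.0691), Pdia6 (0.144) and Dnajb11 (0.13). The block left the calls at the other doses and the slope among dosed arrays as they were.

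The direction of the group medians depended on scaling at 516.2 mg/kg. For ER-associated degradation the median change was -0.011, but 0.039 with median subtraction. For cytosolic heat shock proteins it was 0.001, but -0.082 with cyclic loess. The median of the mitochondrial group at 129.2 mg/kg was -0.005, but 0.004 with median subtraction. The medians of the ER chaperone and lectin groups were below 0 at every dose under both scalings. The small number of arrays limits all counts.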

Other observations

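Xbp1 read highest on vehicle replicate 6 (13.10) and next on vehicle replicate 5 (12.93) among the vehicle arrays, the same pair that was highest for Edem1 (13.39 and 12.67). All 3 Edem1 probe sets ranked these arrays first, with 10.64 and 9.92 on one of the dimmer probe sets and 11.01 and 10.85 on the other. No dose was called for either gene.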
